A study of Mus musculus with 12 samples.

Results

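The genes described are the chemokines and their receptors of the mouse. They were taken from the deposited count table as protein-coding genes whose symbol began with Ccl, Cxcl, Ccr, Cxcr or Ackr followed by a number, together with Xcl1, Xcr1, Cx3cl1 and Cx3cr1. This gave 66 gene IDs with 60 symbols, of 54532 gene IDs in the table. Of these IDs, 44 were ligands, 18 were receptors and 4 were atypical receptors. The 12 RNA-seq libraries came from E15.5 ovaries of Tg(Pou5f1-EGFP)2Mnn fetuses, in which GFP driven by Pou5f1 (Oct4) regulatory sequence marks germ cells. Once a day from E12.5 to E15.5 the pregnant dams were injected intraperitoneally, either with dexamethasone (dex, a synthetic glucocorticoid) at 10 µg for each g the dam weighed or with as much saline. Flow cytometry separated cells with GFP (germ cells) from cells without it (somatic cells), which made 4 groups of 3 libraries: somatic saline, somatic dex, germ saline and germ dex. All groups carried the transgene, and each library held cells pooled over at least 2 litters. The somatic gate was negative for GFP only, so it held every other cell of the ovary that survived sorting, including blood and endothelial cells.

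Chemokines are small secreted proteins that direct cell movement through G protein-coupled receptors on the responding cell. The atypical receptors bind the same ligands but do not signal through G proteins, and mainly remove or transport them. Most chemokines are made when macrophages and other leukocytes are activated, and glucocorticoids are known to repress many of them. CXCL12 and its receptor CXCR4 are known in the gonad for guiding primordial germ cells to the genital ridge.

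Library totals ran from 14658503 to 18245507 counts, and 3 counts, taken as the limit of detection, were worth 0.169 to 0.201 CPM (counts scaled to library size). Levels are CPM scaled over all 12 libraries by the trimmed mean of M values. Markers fixed for germ cells summed to 2640 to 2980 CPM in the germ saline libraries against 3.71 to 6.32 CPM in somatic saline, and to 15.9 to 21.2 CPM in somatic dex. Most of the difference between the somatic groups was Dazl alone, at means of 1.17 CPM after saline and 12.8 CPM after dex. Stromal markers summed to 19600 to 25600 CPM in the somatic libraries and 120 to 254 CPM in the germ libraries. Both sorted populations carried the markers of their label. Somatic dex replicate 1 had the lowest summed macrophage markers, 58.7 CPM against 134 and 144 CPM in the other somatic dex libraries, so the counts of members and the macrophage markers are also given without it.

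Of the 66 IDs, 12 had no count in any library, among them Ccl8, Cxcl15, Xcl1, Ccl21a, Ccl21b and Ccl21c. A further 10 never rose above 3 counts in a library, which at this depth cannot be told from absence. The remaining 44 passed 3 counts somewhere, and 32 of them had a mean of at least 1 CPM in a group. The low values of Ccl21a, Ccl21b, Ccl21c, Ccl19 and Ccl27b are uncertain. These genes have near-identical copies in the mouse genome, 7 of the IDs lie on unplaced scaffolds, and it is not stated how reads matching several places were counted.

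In somatic cells after saline, the chemokine system was mostly Cxcl12. Cxcl12 (chr6:117168535-117181367) was at 270, 272 and 258 CPM in the somatic saline libraries, which was 62.7%, 59.2% and 56.1% of the summed CPM of all 66 IDs. Per length of transcript it was also the highest, at 31.7 ± 0.863 FPKM (SD, n = 3; fragments scaled to transcript length and library size). Cxcl2, a neutrophil attractant, followed at 11.2 ± 2.4 FPKM, and Ccl3, a macrophage inflammatory protein, at 9.52 ± 2.58 FPKM. The ranges of Cxcl2 and Ccl3 cannot be separated at this spread. Cx3cr1, the fractalkine receptor of resident macrophages, was at 6.9 ± 1.23 FPKM, and Cxcr4, the CXCL12 receptor, was at 5.04 ± 0.909 FPKM. Cxcl1, a second neutrophil attractant, was at 4.78 ± 1.23 FPKM and Ackr3, a scavenger of CXCL12, was at 4.73 ± 0.101 FPKM. The levels of Cxcr4, Cxcl1 and Ackr3 did not differ beyond their spread. In all, 27 IDs reached a mean of 1 CPM in somatic saline, 21 in somatic dex, 9 in germ saline and 10 in germ dex.

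**Figure D1:**
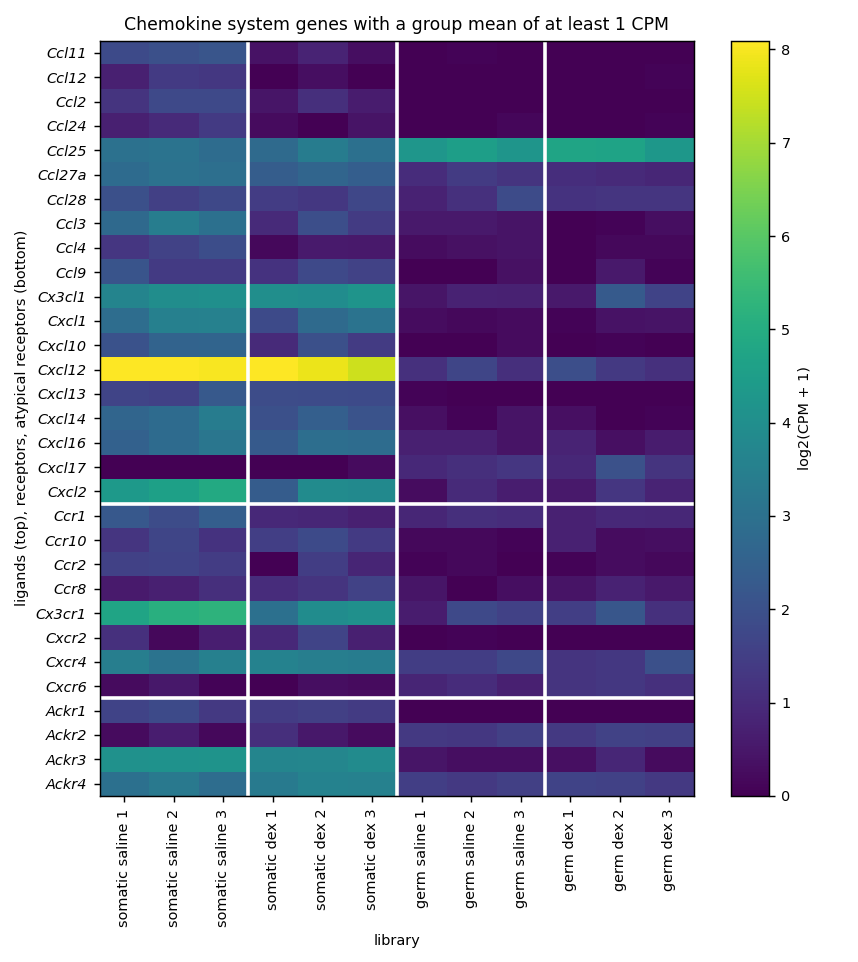
Colour gives log2(CPM + 1) of 31 of the 32 chemokine system IDs with a mean of at least 1 CPM in a group, in each of the 12 libraries, with ligands at the top, receptors in the middle and atypical receptors at the bottom. Cxcl12 is the brightest row of the somatic libraries, at 178 to 272 CPM, and Ccl25 is the brightest of the germ libraries, at 17.5 to 25.4 CPM.

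The first comparison asked which members belong to germ cells and which to somatic cells under saline. By edgeR's quasi-likelihood test with Benjamini-Hochberg adjustment, 4 of the 30 members tested were higher in germ cells and 25 were lower, while 1, Ccl28, did not pass at an adjusted p of 0.15. Over all 17941 genes tested, 86.1% passed, with 43.1% higher and 42.9% lower in germ cells, so passing the test was common for any gene, whereas the members lay mainly on the somatic side. The median log2 fold change, germ over somatic, was -4.29 for the members and 0.0047 for all genes tested. Several members lower in germ cells, such as Ccl2, Ccl11, Ccl12, Cxcl1 and Cxcl10, had 3 counts or fewer in every germ saline library. They passed the low-count filter through the somatic libraries, which fixed their direction, as the germ libraries did for Cxcl17. Both the count of 25 and the median rest partly on such members.

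The member with the highest level in germ cells was Ccl25 (chr8:4325210-4360020), the ligand of CCR9, which attracts thymocytes and gut lymphocytes. It was at 18.0, 22.1 and 17.5 CPM in germ saline and at 7.11, 7.48 and 6.19 CPM in somatic saline. The groups did not overlap, and the log2 fold change was 1.48 ± 0.16 (SE, edgeR adjusted p = 3.92e-07). Its exons share 204 bases with Elavl1 on the other strand, and reads of the 2 genes cannot be told apart there because the strand setting of the counting is not stated. Its receptor Ccr9 stayed under 1 CPM in every group mean.

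Cxcl17 (chr7:25400053-25412886), a mucosal chemokine, was barely counted outside germ cells. It had 14, 19 and 25 counts in germ saline and no count in the somatic saline libraries, and 0, 0 and 3 counts in somatic dex. Set against the limit of 3 counts per library, it was at least 5.96-fold higher in germ saline than in somatic saline (edgeR adjusted p = 1.42e-05). Per length it was at 1.52 ± 0.362 FPKM in germ saline, beside 2.60 ± 0.324 FPKM for Ccl25. An antisense gene, 4732471J01Rik, overlaps its span without sharing exon bases.

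The other members higher in germ cells were a scavenger and a receptor, both near 1 CPM. Ackr2, which scavenges inflammatory CC chemokines, was at 1.55, 1.46 and 1.89 CPM in germ saline against 0.189, 0.58 and 0.121 CPM in somatic saline (log2 fold change 2.46 ± 0.51, edgeR adjusted p = 0.000414). Cxcr6, the receptor of CXCL16, was at 0.775, 1.05 and 0.629 CPM in germ saline against 0.189, 0.451 and 0.0607 CPM in somatic saline (log2 fold change 1.80 ± 0.59, edgeR adjusted p = 0.0108). Neither pair of groups overlapped, but the call on Cxcr6 was lost by DESeq2 (adjusted p = 0.0539) and without somatic saline replicate 1 (0.0516) or 3 (0.0648). Cxcr6 lies within the span of Fyco1 on the other strand and shares no exon bases with it.

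The largest difference towards somatic cells with counts in both groups was that of Cxcl12, at 1.16, 2.21 and 1.14 CPM in germ saline, 0.566% of its mean in somatic saline. The log2 fold change was -7.44 ± 0.14 (SE, edgeR adjusted p = 3.16e-15). Its receptors were also somatic in these libraries. Cxcr4 (chr1:128588199-128592293) was at 10.1, 7.48 and 10.6 CPM in somatic saline and at 1.74, 1.75 and 2.34 CPM in germ saline (log2 fold change -2.25 ± 0.24, edgeR adjusted p = 4.03e-07). Ackr3 (chr1:90203980-90216751) was at 16.0, 16.3 and 16.7 CPM in somatic saline against 0.388, 0.233 and 0.229 CPM in germ saline (log2 fold change -5.82 ± 0.26, edgeR adjusted p = 1.59e-11). Cxcr4 thus kept 20.8% of its somatic level in germ cells, while Ackr3 kept 1.74%.

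Several inflammatory ligands were at or under the limit of detection in every germ saline library. Against that limit of 3 counts per library, Cxcl1 was at least 47.6-fold higher in somatic saline, Cxcl10 at least 22.6-fold, Ccl11 at least 15.3-fold and Ccl2 at least 10.7-fold. Ackr1, the receptor on venules and red cells that holds many chemokines, was at least 10.5-fold higher. Its exons share 361 bases with Cadm3 on the same strand. For scale, the stromal markers in germ saline were at 0.753% of their somatic sum and the pregranulosa markers at 6.07%. The macrophage markers were at 16.9%, mainly through Mrc1 at 31.5 CPM. The part of sorting carry-over in the low germ cell values was not tested.

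Other ligands with somatic levels of a few CPM were lower in germ cells as well. Cxcl16, a membrane-bound ligand and the partner of CXCR6, was at 4.72, 6.13 and 8.01 CPM in somatic saline and at 0.646, 0.641 and 0.343 CPM in germ saline (log2 fold change -3.51 ± 0.34, edgeR adjusted p = 1.73e-07). Its exons share 552 bases with Zmynd15 on the other strand. The ligand and its receptor thus lay on opposite sides of the sort. Cxcl13, the B cell attractant, was at 2.14, 1.93 and 3.76 CPM in somatic saline, with 1 count or none in each germ saline library. Ccl27a, a skin-homing ligand, was at 6.17, 7.22 and 6.80 CPM in somatic saline and 1.03, 1.63 and 1.31 CPM in germ saline (log2 fold change -2.32 ± 0.26, edgeR adjusted p = 7.73e-07). It has near-identical copies, so its level is uncertain.

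Ccl9, a macrophage ligand of CCR1, was at 3.27, 1.61 and 1.58 CPM in somatic saline and at 0, 0 and 0.286 CPM in germ saline. Ccl24, an eosinophil attractant, was at 0.629, 0.967 and 1.58 CPM in somatic saline against 0, 0 and 0.114 CPM in germ saline. Ackr1 was at 2.08, 2.51 and 1.52 CPM in somatic saline and had no count in a germ library. All 3 genes were separate between the groups. Ccr10, the receptor of CCL27 and CCL28, was at 1.38, 2.26 and 1.27 CPM in somatic saline and at 0.129, 0.117 and 0.0571 CPM in germ saline (log2 fold change -3.92 ± 0.56, edgeR adjusted p = 1.14e-05). Ccr8, a receptor of T cells, passed between the dex groups only, where it was at 1.03, 1.35 and 2.02 CPM in somatic and 0.335, 0.711 and 0.466 CPM in germ cells (log2 fold change -1.54 ± 0.48, edgeR adjusted p = 0.011). It was not among the members tested under saline, and its call was lost without somatic dex replicate 3 (0.0518) or germ dex replicate 1 (0.0542).

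**Figure D2:**
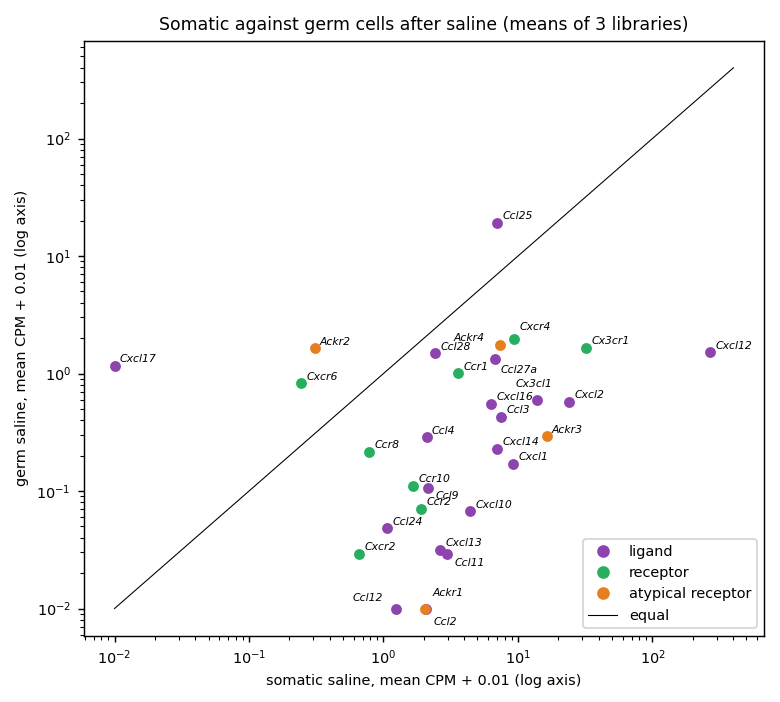
Each point is a member's mean CPM over the 3 somatic saline libraries (x axis) and the 3 germ saline libraries (y axis), on log axes with a small constant added so that zeros can be drawn; the line marks equal levels. Ccl25, Cxcl17, Ackr2 and Cxcr6 lie above the line, and Cxcl12 lies farthest to the right, at a mean of 267 CPM in somatic and 1.51 CPM in germ cells.

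In the dex libraries the same comparison called 4 of 27 members tested higher and 19 lower in germ cells, where 84.3% of 18171 genes passed. The limit from the low-count filter given for saline applies here too. Ccl25, Cxcl17, Ackr2 and Cxcr6 were again the 4 on the germ side. The call on Ackr2 (log2 fold change 1.59 ± 0.56, edgeR adjusted p = 0.0203) was lost without somatic dex replicate 2 (0.062) or 3 (0.0565) and without germ dex replicate 2 (0.0539) or 3 (0.0538). Ccr1, a receptor of CCL3 and other CC ligands, was 1.83 ± 0.32 lower in germ cells on the log2 scale under saline (edgeR adjusted p = 8.76e-05), and its log2 fold change between the dex groups was 0.01 ± 0.42 (edgeR adjusted p = 0.98). Its levels were 3.65, 2.71 and 4.37 CPM in somatic saline, 0.906, 0.845 and 0.654 in somatic dex, 0.84, 1.11 and 1.03 in germ saline and 0.669, 0.905 and 0.874 in germ dex. Only the somatic saline group stood above the others.

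The second comparison asked what dex did to the members in somatic cells. Of 30 members tested, 9 fell and none rose. They included the CC ligands Ccl3, Ccl4, Ccl11 and Ccl12, the CXC ligands Cxcl2 and Cxcl14, and the receptors Ccr1 and Cx3cr1. This was 30.0% of the members, where 3.36% of the 16556 genes tested were called lower, 4.81% higher and 8.18% in either direction. Of the 25 members with a mean under 10 CPM, 7 fell (28.0%), where 2.27% of the genes at that level were called lower. The median log2 fold change was -0.477 for the members and 0.000142 for all genes tested. In 14 of the 30 (46.7%) all 3 dex libraries lay below all 3 saline libraries, which held for 11.9% of all genes tested. Members such as Ccl4, Ccl11, Ccl12 and Ccl24 passed the low-count filter only through the saline libraries, so their direction was tied to the filter. These shares of members rest partly on them, and the same filter was used for all genes. Only Ackr4 had an unadjusted p under 0.05 in the upward direction, and DESeq2 also called 9 members, all of them lower. Without somatic dex replicate 1, 8 members were called. The count fell to 4 without somatic saline replicate 3 and to 5 without somatic saline replicate 2.

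Of the ligands called lower, the CC ligands fell further than the CXC ligands. The classes were not tested against each other, and genes with few counts pass only at larger folds. Ccl3 (chr11:83647844-83649355), the macrophage inflammatory protein MIP-1 alpha, was at 5.79, 9.80 and 6.98 CPM after saline and at 0.967, 2.87 and 1.66 CPM after dex. It was 4.11-fold lower, with a log2 fold change of -2.02 ± 0.34 (SE, edgeR adjusted p = 0.00213). Ccl4 (chr11:83662584-83664683), its neighbour and a related ligand, was at 1.45, 2.00 and 2.79 CPM after saline and at 0.121, 0.507 and 0.476 CPM after dex (log2 fold change -2.47 ± 0.52, edgeR adjusted p = 0.0101). Neither ligand overlapped between the groups, and dex replicate 1 was the lowest library for both. Without somatic saline replicate 3 the adjusted p of Ccl4 was 0.0778.

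Ccl11 (chr11:82057823-82062955), or eotaxin, which attracts eosinophils, was at 2.52, 2.97 and 3.40 CPM after saline and at 0.302, 0.732 and 0.238 CPM after dex. It was 6.98-fold lower, on 5, 13 and 4 counts after dex, with a log2 fold change of -2.77 ± 0.46 (SE, edgeR adjusted p = 0.00185). Ccl12 (chr11:82101845-82103400), a monocyte attractant related to CCL2, had 10, 25 and 24 counts after saline and 0, 4 and 0 counts after dex (log2 fold change -3.86 ± 0.86, edgeR adjusted p = 0.0132). Its dex level rests on 4 counts in all. The adjusted p rose to 0.0672 without somatic saline replicate 2 and to 0.0723 without replicate 3. Both genes were separated between saline and dex libraries, and both lie with other CC ligands of chromosome 11. Of these ligands 4 of 6 tested were called lower, where 3.36% of all genes tested were. For Ccl4, Ccl11 and Ccl12 the direction was tied to the low-count filter, and others such as Ccl6 and Ccl7 were not tested.

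**Figure D3:**
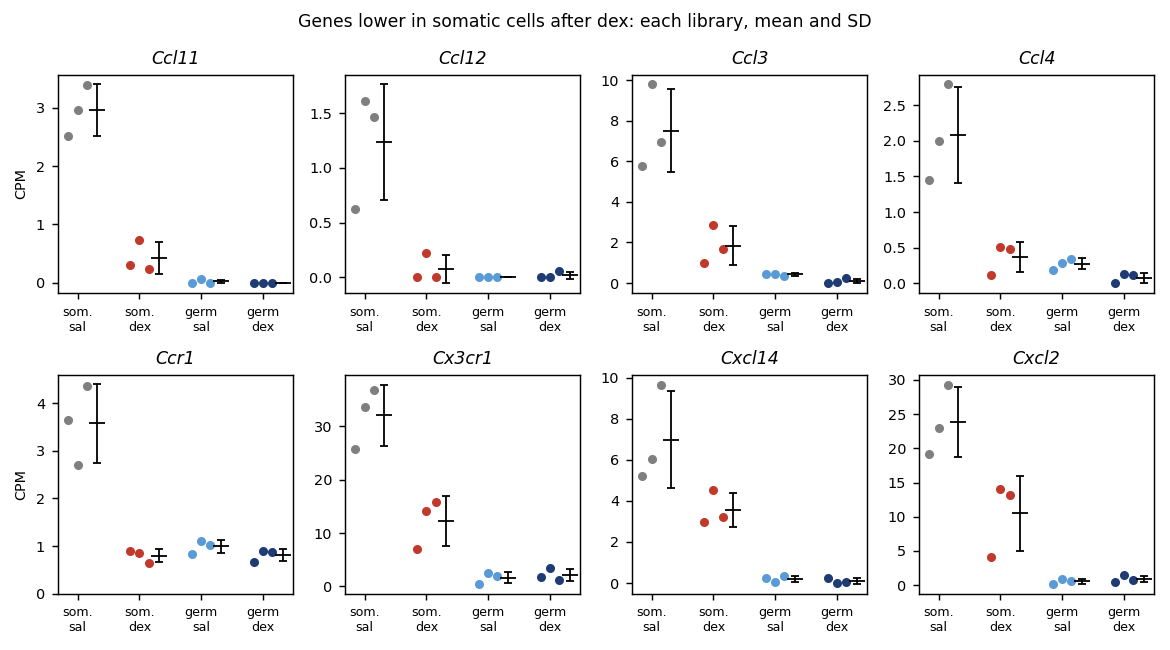
Points are the CPM of single libraries in the 4 groups for 8 of the 9 members called lower in somatic cells after dex, with the mean and SD of the 3 libraries beside them as a dash and bar; each panel has its own scale. In each panel all 3 somatic dex points lie below all 3 somatic saline points, and for Cx3cr1 the somatic saline libraries span 25.7 to 36.8 CPM against 6.95 to 15.8 CPM after dex.

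Ccr1, a receptor of CCL3, and Cx3cr1, the fractalkine receptor, fell as well. Cx3cr1 (chr9:119901616-120069879) was the more abundant. It was at 25.7, 33.7 and 36.8 CPM after saline and at 6.95, 14.2 and 15.8 CPM after dex (log2 fold change -1.38 ± 0.23, edgeR adjusted p = 0.00198). Its exons share 78 bases with the antisense gene Gm33858. Ccr1 (chr9:123962124-123968692), whose values are given above, was 4.46-fold lower (log2 fold change -2.15 ± 0.35, edgeR adjusted p = 0.0016).

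Among the CXC ligands, Cxcl2 (chr5:90903871-90905938) was at 19.2, 23.0 and 29.3 CPM after saline and at 4.11, 14.1 and 13.2 CPM after dex (log2 fold change -1.18 ± 0.31, edgeR adjusted p = 0.0339). Cxcl14 (chr13:56288643-56296551), a ligand made by epithelia and stroma, was at 5.22, 6.06 and 9.65 CPM after saline and at 2.96, 4.51 and 3.21 CPM after dex (log2 fold change -0.97 ± 0.27, edgeR adjusted p = 0.0421). The groups did not overlap for either gene. These were the calls nearest the threshold. DESeq2 gave Cxcl2 an adjusted p of 0.192, and the call was also lost without somatic saline replicate 1 (0.0535), 2 (0.0839) or 3 (0.17) and with all 12 libraries in the fit (0.065). Cxcl14 lost its call without somatic saline replicate 2 (0.0765) or 3 (0.246) and without somatic dex replicate 1 (0.117) or 3 (0.0517), and with all 12 libraries in the fit (0.161). Ccr1, Ccl11, Cx3cr1 and Ccl3 kept theirs in all 11 alternatives, at adjusted p-values of up to 0.0199.

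A further 5 members had no overlap between groups but did not pass the adjustment. They were Ccl24 (log2 fold change -2.54, edgeR adjusted p = 0.0543), Cxcl10 (-1.23, 0.0623), Ccl2 (-1.60, 0.0635), Ackr3 (-0.38, 0.0911) and Ccl27a (-0.56, 0.113). Ccl2, the main monocyte attractant, was at 1.32, 2.45 and 2.43 CPM after saline and at 0.362, 1.13 and 0.535 CPM after dex. Cxcl10, an interferon-induced ligand, was at 3.15, 4.96 and 5.04 CPM after saline and at 0.967, 2.93 and 1.66 CPM after dex. DESeq2 called both Cxcl10 (adjusted p = 0.0289) and Ccl2 (0.0496). Exons of Cxcl10 share 133 bases with Art3 on the other strand.

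Cxcl12 itself was at 269, 231 and 178 CPM after dex against 258 to 272 CPM after saline, with a log2 fold change of -0.24 ± 0.11 (SE, edgeR adjusted p = 0.227). Dex replicate 1 lay within the saline range and replicate 3 was the lowest. Without somatic dex replicate 1 the adjusted p was 0.041 at a log2 fold change of -0.38. The 65 other members together came to 161, 188 and 202 CPM after saline and 96.2, 138 and 131 CPM after dex. Cxcr4 was at 10.9, 9.97 and 9.45 CPM after dex (log2 fold change 0.10 ± 0.17, edgeR adjusted p = 0.79), and its dex libraries lay among or just above the saline ones. Cx3cl1, or fractalkine, the ligand of CX3CR1, was at 11.7, 14.8 and 15.4 CPM after saline and at 15, 14.3 and 17.2 CPM after dex (log2 fold change 0.15 ± 0.14, edgeR adjusted p = 0.622), so the groups overlapped for the ligand and not for its receptor. Ackr4, which scavenges CCL19, CCL21 and CCL25, was at 6.98, 8.70 and 6.37 CPM after saline and at 9.12, 10.9 and 10.7 CPM after dex. All its dex libraries were above the saline ones, but it did not pass the adjustment (log2 fold change 0.47 ± 0.17, edgeR adjusted p = 0.126), and its exons share 479 bases with Acad11 on the other strand.

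**Figure D4:**
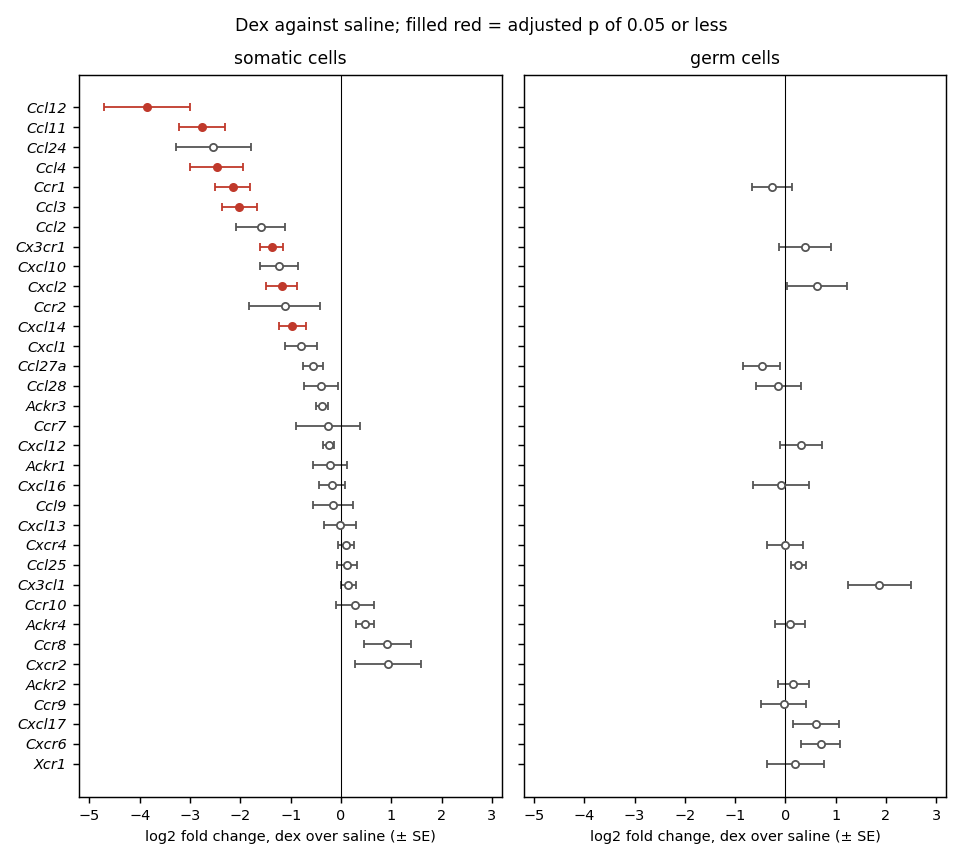
Points give the log2 fold change of dex over saline with its SE, for 29 of the 30 members tested in somatic cells (left) and all 16 tested in germ cells (right), in 1 row per gene; filled red points have an edgeR adjusted p of 0.05 or less. On the left 8 members are filled, from Ccl12 at -3.86 to Cxcl14 at -0.97, and none is filled on the right.

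Cxcl1 (chr5:90891241-90893115), which lies beside Cxcl2 and shares its receptor CXCR2, was at 6.48, 10.4 and 10.8 CPM after saline and at 2.54, 5.91 and 7.49 CPM after dex (log2 fold change -0.80 ± 0.32, edgeR adjusted p = 0.16). Its groups overlapped through somatic dex replicate 3. Both genes, and Cxcl10 on the same chromosome, carry in front of their start letters of the kappaB site, which binds NF-kappaB, a factor that glucocorticoid receptors are known to oppose. Chosen for these letters, and for lying on 1 chromosome, their sequences are shown from 200 to 31 bases before the RefSeq start (GRCm38.p6, on the gene's strand), with matches to GGNNTTTCC on either strand in capitals.
Cxcl1, chr5:90891045-90891214, plus strand: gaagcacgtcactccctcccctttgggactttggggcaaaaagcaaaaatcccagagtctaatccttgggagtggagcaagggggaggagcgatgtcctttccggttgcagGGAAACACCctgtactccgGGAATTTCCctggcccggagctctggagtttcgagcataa
Cxcl2, chr5:90903699-90903868, plus strand: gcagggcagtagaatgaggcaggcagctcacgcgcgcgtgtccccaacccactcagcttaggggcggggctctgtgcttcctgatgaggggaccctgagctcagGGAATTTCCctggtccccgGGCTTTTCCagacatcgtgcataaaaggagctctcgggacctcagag
Cxcl10, chr5:92348920-92349089, minus strand: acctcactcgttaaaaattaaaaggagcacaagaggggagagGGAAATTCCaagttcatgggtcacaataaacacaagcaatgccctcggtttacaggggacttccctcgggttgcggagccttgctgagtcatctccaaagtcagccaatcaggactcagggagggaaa

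The first bases of the matches lay 89 and 70 bases before the start in Cxcl1, 96 and 77 in Cxcl2, and 158 in Cxcl10. RefSeq promoters were matched by symbol for 45 of the 60 symbols, and for 22 of the members tested in somatic cells, 6 of them called. Within 250 bases before the start, these kappaB letters were found in 1 of the 6 called members (Cxcl2) and in 4 of the 16 not called (Cxcl1, Cxcl10, Ccl9 and Ackr4), and in 4.93% of all 32851 promoters. The letters TGANTCA of the AP-1 site were in none of the 6 and in 3 of the 16, against 6.75% of all promoters. AGAACA, the core of the glucocorticoid response element, was in 1 of the 6 (Cxcl14) and 2 of the 16 (Cxcr2 and Cxcr4), against 16.1%, and TATAAA was in 1 of the 6 and 7 of the 16, against 12.4%. The motifs searched do not contain each other. A match describes the letters in this window only. KappaB sites spelled otherwise than GGNNTTTCC were neither counted nor put in capitals, so these counts are not counts of all kappaB sites.

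Most of the members that fell are known from macrophages, so the macrophage markers are given beside them. The 12 markers summed to 199, 245 and 259 CPM in somatic saline and to 58.7, 144 and 134 CPM in somatic dex, a ratio of 0.477 between the means. None of the 12 was at 0 in a group, all 12 had a log2 fold change below 0 (median -0.904) and 6 fell, namely Adgre1, Cd68, Csf1r, Fcgr1, Mrc1 and Tyrobp. Adgre1 (F4/80) fell by 1.78 ± 0.32 on the log2 scale (edgeR adjusted p = 0.00346), and Csf1r, the receptor that macrophages need to survive, fell by 1.31 ± 0.26 (edgeR adjusted p = 0.00634). In sorted bulk samples, fewer cells of a type and less RNA per cell cannot be told apart. Without somatic dex replicate 1, an analysis chosen after seeing the data, the ratio of the marker sums was 0.593, and 5 of the 12 markers fell, including Adgre1 by 1.38 ± 0.18 (edgeR adjusted p = 0.000362) and Csf1r by 0.97 ± 0.13 (edgeR adjusted p = 0.000445), while Tyrobp did not pass (0.0684).

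Divided by the macrophage marker sum of the same library, 6 of the 9 members did not overlap between saline and dex. All 9 had been picked as lower in these same libraries, and the division was not made for other genes. Counts of members without overlap therefore have no baseline here. Ccl12 was at 0.511% ± 0.176 (SD, n = 3) of the marker sum after saline and at 0.0521% ± 0.0902 after dex, a ratio of 0.102. The ratio was 0.317 for Ccl11, 0.348 for Ccl4 and 0.509 for Ccl3. Cx3cr1 was at 13.6% ± 0.664 after saline and 11.1% ± 1.12 after dex, a ratio of 0.82, so its groups came close together once divided. Ccr1 (ratio 0.567), Cxcl2 (0.879) and Cxcl14 (1.2) overlapped. Without somatic dex replicate 1, 7 of the 9 did not overlap, since Ccr1 was then separate at a ratio of 0.349, and the ratios were 0.153 for Ccl12, 0.272 for Ccl11, 0.405 for Ccl4, 0.506 for Ccl3, 0.794 for Cx3cr1, 0.972 for Cxcl2 and 0.94 for Cxcl14. The stromal marker sum had a dex to saline ratio of 1.05. Ccl11 and Cxcl14 are also made by stromal cells in other organs, but these bulk libraries do not show which cells made them here. The macrophage marker sum is weighted towards the markers with most counts, Mrc1 (72.5 CPM) and Csf1r (56.1 CPM) in somatic saline. Single markers fell unequally, with Adgre1 from 14.9 to 4.34 CPM and C1qc from 14.2 to 8.72 CPM between the means. The ratios after division depend on this weighting. What part the macrophage content has in any of these changes was not tested.

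**Figure D5:**
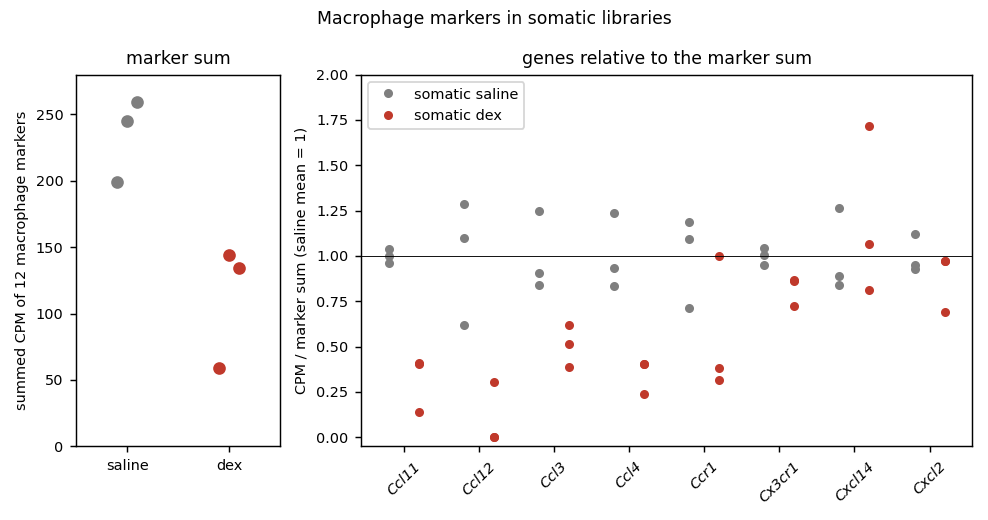
The left panel gives the summed CPM of the 12 macrophage markers in each somatic library; the right panel gives the CPM of 8 called members divided by that sum, with the saline mean set to 1. The marker sum is 199 to 259 CPM after saline and 58.7 to 144 CPM after dex, and the dex points stay below all saline points for Ccl11, Ccl12, Ccl3, Ccl4 and Cx3cr1.

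Markers of other cells moved differently. In the list of other leukocytes, 4 of 8 genes tested rose and 1 fell. The mast cell proteases Cpa3 (26.2 ± 4.66 to 109 ± 56.5 CPM, SD, n = 3) and Cma1 (16.1 ± 3.94 to 60.1 ± 25.9 CPM) rose, as did the neutrophil and monocyte proteins S100a8 and S100a9, while Csf3r, the granulocyte growth factor receptor, fell. Ly6g, the defining neutrophil marker, stayed at a mean of 0.15 CPM or less. The receptors of such cells were low. Cxcr2, the neutrophil receptor of CXCL1 and CXCL2, had 19, 2 and 10 counts after saline and 15, 38 and 11 after dex (edgeR adjusted p = 0.467), and Ccr3, the eosinophil receptor of CCL11, never passed 4 counts in a somatic library. Ccr2, the monocyte receptor of CCL2 and CCL12, had 31, 32 and 28 counts after saline and 0, 32 and 13 after dex (edgeR adjusted p = 0.408). The 0 came from somatic dex replicate 1.

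Of the remaining marker lists, 3 of 8 endothelial genes fell and 1 rose, 1 of 7 perivascular genes fell and 1 rose, 1 of 8 stromal genes rose and 1 of 8 pregranulosa genes fell. By edgeR no gene of the surface epithelial (6 tested), erythroid (7) or mesonephric (4) lists passed, and 2, 0 and 0 of them had an unadjusted p under 0.05. Of the germ cell list 1 of 5 tested rose, Dazl, from 1.17 ± 0.193 to 12.8 ± 0.134 CPM.

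Of 9 chemokine-related genes outside the naming rule, 8 were tested, of which 2 fell and none rose by edgeR. Mif had an unadjusted p of 0.0259 upward (log2 fold change 0.20, adjusted p = 0.165). Pf4, a CXC chemokine of platelets and macrophages also called CXCL4, fell by 1.52 ± 0.31 on the log2 scale, from 6.22 ± 1.79 to 2.17 ± 0.86 CPM (edgeR adjusted p = 0.00846). Cd74, the class II invariant chain and a receptor of MIF, fell by 1.2 ± 0.25 (edgeR adjusted p = 0.00829). In the list of 35 genes that signal below the receptors, 3 rose and 3 fell, and the median log2 fold change was -0.0863. Dock2, the leukocyte activator of Rac, fell by 0.79 ± 0.17, Ptk2b (Pyk2) by 0.78 ± 0.19 and Prex1 by 0.38 ± 0.10. The G protein subunit Gnai1 rose, with 46.1 ± 2.25 CPM after saline and 84.1 ± 6.61 CPM after dex (log2 fold change 0.86 ± 0.07, edgeR adjusted p = 7.63e-06). Rgs1 and Rgs2, which turn off G protein signals, rose by 1.26 ± 0.32 and 0.28 ± 0.06 on the log2 scale.

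In germ cells, none of the 16 members tested passed the edgeR test of dex against saline, where 0.208% of 16857 genes did. DESeq2 called none either, and 1 member had an unadjusted p under 0.05. The median log2 fold change was 0.173 for the members and 0.0142 for all genes tested. Ccl25 was at 25.4, 24.7 and 18.4 CPM in germ dex against 17.5 to 22.1 CPM in germ saline, which overlapped (log2 fold change 0.26 ± 0.15, edgeR adjusted p = 0.549). Cxcr4 was at 1.34, 1.49 and 2.91 CPM in germ dex (log2 fold change -0.01 ± 0.36, edgeR adjusted p = 0.995), and its values also overlapped those of saline. Cxcl17 was at 0.87, 3.04 and 1.34 CPM in germ dex against 0.905, 1.11 and 1.43 CPM in germ saline (log2 fold change 0.61 ± 0.46, edgeR adjusted p = 0.649), with replicate 2 apart from the others. Ackr2 differed by 0.15 ± 0.31 and Cxcr6 by 0.70 ± 0.39 on the log2 scale.

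The member with the unadjusted p under 0.05 was Cx3cl1, which had 6, 12 and 12 counts in germ saline and 7, 61 and 36 in germ dex (log2 fold change 1.87 ± 0.62, unadjusted p = 0.0109 and adjusted p = 0.288 by edgeR). Replicates 2 and 3 of dex were high and replicate 1 lay within the saline range. Without germ dex replicate 1 the adjusted p was 0.0415. The pregranulosa markers in the germ dex libraries summed to 25.2, 108 and 83.8 CPM in the same order, against 35.7, 59.4 and 74.2 CPM in germ saline. They were thus also low in replicate 1, and their part in the Cx3cl1 values was not tested.

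Whether the effect of dex differed between germ and somatic cells was tested as an interaction over all 12 libraries. None of the 36 members tested passed, where 1.62% of 19390 genes did, while 4 had an unadjusted p under 0.05 and DESeq2 called 1. That member was Ccr1, whose log2 change was 1.87 ± 0.51 higher in germ cells than in somatic cells (edgeR adjusted p = 0.0838, DESeq2 adjusted p = 0.0492). The others were Cx3cr1 (1.74 ± 0.58, edgeR adjusted p = 0.159), Cx3cl1 (1.70 ± 0.60, 0.19) and Cxcl2 (1.79 ± 0.76, 0.265). Most members that fell in somatic cells were near the limit of detection in germ cells, and the interval of the difference is wide there. For Ccl4, for example, the difference was 0.82 ± 1.21 (SE). The fall of the 9 members in somatic cells is therefore not shown to differ from the response in germ cells.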

How the data were processed

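PolyA RNA of sorted cells was sequenced in 12 libraries. The authors aligned reads to mm10 with HISAT2 2.0.5 and counted them per gene with featureCounts 1.5.0-p3, and deposited raw counts and FPKM (fragments scaled to transcript length and library size). Their own tables of fold changes and p-values (DESeq2 1.20.0) were not used. Strand and multi-mapping settings are not given in the sources used here. Counts were tested with edgeR 4.0.16 in R 4.3.3 (quasi-likelihood, trimmed mean of M values, filterByExpr, no covariates, Benjamini-Hochberg adjusted p of 0.05 or less), on the 6 libraries of each comparison or all 12 for the interaction. Values printed as ± after a log2 fold change are SE, taken as the size of the log2 fold change over the square root of edgeR's F statistic. They are unreliable for genes near the limit of detection in a group. In the interaction they came to 417 for Ackr1 and 0.0226 for Cxcl10. Deposited FPKM was used to compare levels between genes and to repeat the folds of group means. Members with a group mean of at least 1 CPM and a call in a test were described by library in the groups a result turns on; 1 of them is counted but not reported here. Genes outside the family were named from fixed marker and signalling lists where called under dex. Members and lists were chosen with earlier results of these data known. Alternatives were DESeq2 1.42.0, other size factors, no filter, a replicate block, all 12 libraries and leaving out each library. The code was tested on simulated data. Deviations from the group means of same-numbered germ and somatic dex libraries correlated at 0.233, 0.112 and 0.231, so these were taken as paired by number, from the data and not the labels. Replicate 1 of germ saline and germ dex, from different dams, correlated at 0.323, so such values do not establish a shared pool. The p-values measure the spread between pooled samples, and detection limits cover counting error only.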

Additional observations from a re-analysis of the deposited data

How the results depend on the processing

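No member's called change turned direction under the alternatives. Of 130 tested member values, 110 kept their side of the threshold throughout. Folds of group means from FPKM and from CPM did not differ beyond their spread for 27 of 27, but both rest on the same counts, so close values were bound to result. In somatic cells, 9 members were called, 14 without the low-count filter, 6 with all 12 libraries in the fit and 4 to 11 when leaving out a library. All genes called there numbered 1354, 803 with all 12 libraries in the fit, and 754 to 1881 when leaving out a library. In germ cells no member was called, 1 without the filter and 0 to 1 when leaving out a library. All genes called there numbered 35, against 420 without the filter, 158 by DESeq2, 64 with all 12 libraries and 17 to 81 when leaving out a library. For the difference of the dex effect, no member was called, against 3 without the filter (Cx3cr1, Cxcl2 and Cx3cl1), 1 by DESeq2 and 0 to 1 when leaving out a library. All genes called there numbered 314, against 727 without the filter, 620 by DESeq2 and 143 to 384 when leaving out a library. Between germ and somatic cells, 29 to 36 members were called under saline and 22 to 29 under dex, with 29 and 23 as reported. The cause of these shifts was not tested.

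With the replicate number as a block, 13 members were called in somatic cells, adding Cxcl1 (adjusted p = 0.0151), Cxcl10 (0.0166), Ccl2 (0.0353) and Ccl24 (0.0431), and 1520 genes in all. Same-numbered somatic saline and dex libraries correlated at 0.178, -0.0606 and 0.0249, and the germ ones at 0.323, 0.0341 and 0.134. Saline and dex libraries came from different dams, so a correlation by number need not mean a shared pool. The block called 0 members in germ cells and for the difference, 29 between germ and somatic cells under saline and 23 under dex, where the numbers were taken as paired. Germ and somatic saline libraries correlated at 0.211, 0.0904 and 0.185, each best with its own number. This is a hint from the data and not from the labels, and it is weakest in replicate 2. Depth limits the 12 members under 1 CPM and the call on Ccl12, which rests on few counts. In somatic dex, Ccl4 had 2, 9 and 8 counts and Ccl11 had 5, 13 and 4, so their folds rest on few counts too.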
